A study of Mus musculus with 31 samples.

Results

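Expression of 9 genes of bone morphogenetic protein (BMP) signalling was followed in mouse cardiac fibroblasts, the cells that lay down the heart's collagen matrix. The genes were chosen by symbol from the 24421 genes of the deposited count table, and comprised the ligand genes Bmp2, Bmp4, Bmp6 and Gdf6, the antagonist gene Grem1, and the response genes Smad6, Id1, Id2 and Id3. All 9 were on the table, and all 9 were among the 14036 genes with enough reads for a test. The cells were freshly isolated from hearts of C57Bl/6 mice aged 8 to 12 weeks, and no group carried a transgene or an added agent in the labels. RNA was sequenced from 3 libraries each of cultures labelled 3D-2D-3D, 3D-2D-2D, 3D, 2D, 3D-5days, 2D-5days, and 2D on substrates of 0.5, 8 and 64 kPa, and from 2 libraries of 3D-2D cultures. Compound labels were taken to list the arrangements in the order the cells passed through them. How long the cells stayed in each arrangement, what the substrates were made of and how many mice went into a library is not stated in the sources used here.

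BMPs are secreted ligands of the TGF-β superfamily that bind pairs of type I and type II serine/threonine kinase receptors on the cell surface. The activated receptors phosphorylate Smad1, Smad5 and Smad9, which enter the nucleus with Smad4 and switch on a small set of direct targets, among them the Id genes and the inhibitory Smads. Outside the cell, antagonists such as gremlin 1 and noggin hold the ligands away from their receptors. In the heart the pathway is best known for its part in forming the valves and septa.

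On mm10 (GRCm38.p6, RefSeq positions), Bmp2 lies on chromosome 2 from 133552159 to 133562896, Bmp4 on chromosome 14 from 46383525 to 46390669, and Bmp6 on chromosome 13 from 38345716 to 38500314. Gdf6 lies on chromosome 4 from 9844372 to 9862345, Grem1 on chromosome 2 from 113748675 to 113758648, and Smad6 on chromosome 9 from 63953076 to 64022085. Id1 lies on chromosome 2 from 152736251 to 152737410, Id2 on chromosome 12 from 25093799 to 25096092, and Id3 on chromosome 4 from 136143822 to 136145392.

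The RefSeq promoter table of the same build held 6 of the 9 genes. Of these, 3 response genes are shown: Smad6 and Id3, which differed together between 5-day cultures, and Id2, which did not. Each sequence runs from 250 bases before the annotated start to 50 bases from it, and the capitals mark matches on either strand to motifs that Smads are known to bind. The motifs searched were the GC-rich site GGCGCC, a variant of that site with the letters GGAGCC on either of the strands, and the longer palindrome spelled GTCTAGAC.
Smad6 promoter, chr9:64022010-64022309, minus strand: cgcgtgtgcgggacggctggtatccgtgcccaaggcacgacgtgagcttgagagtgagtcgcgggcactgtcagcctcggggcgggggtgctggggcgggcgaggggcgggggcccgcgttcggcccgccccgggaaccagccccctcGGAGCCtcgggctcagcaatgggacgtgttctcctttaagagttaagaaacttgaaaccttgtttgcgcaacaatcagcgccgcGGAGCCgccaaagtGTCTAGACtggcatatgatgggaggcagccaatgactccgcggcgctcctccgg
Id3 promoter, chr4:136143572-136143871, plus strand: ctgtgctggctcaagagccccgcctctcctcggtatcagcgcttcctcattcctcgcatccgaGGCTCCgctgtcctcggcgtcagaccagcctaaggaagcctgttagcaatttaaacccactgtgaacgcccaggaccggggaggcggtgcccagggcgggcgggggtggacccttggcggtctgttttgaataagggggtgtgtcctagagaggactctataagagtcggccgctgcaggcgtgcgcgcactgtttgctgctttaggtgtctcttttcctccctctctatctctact
Id2 promoter, chr12:25096043-25096342, minus strand: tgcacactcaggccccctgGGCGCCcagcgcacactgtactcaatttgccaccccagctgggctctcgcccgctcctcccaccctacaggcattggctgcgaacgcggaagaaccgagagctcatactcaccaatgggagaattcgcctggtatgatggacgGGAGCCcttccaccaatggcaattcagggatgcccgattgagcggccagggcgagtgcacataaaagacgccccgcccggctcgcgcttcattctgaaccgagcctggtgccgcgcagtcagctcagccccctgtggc
The Smad6 window held the variant site at 2 places and the palindrome once. The palindrome began 4 bases before the start used for the window and ran across it. That start and the palindrome lie inside the RefSeq span of Smad6 given above, which begins at 64022085 on the minus strand. The Id3 window held the variant site once, on its reverse strand, and the Id2 window held the GC-rich site once and the variant once. No match overlapped another. Among all 32851 promoters of this length in the table, 11.9% held the GC-rich site, 30.8% the variant and 0.213% the palindrome. These matches describe the letters only.

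The libraries did not all share an origin. Libraries 1 and 2 of 3D-2D-3D, 3D-2D, 3D and 2D held Xist reads and at most 7 reads of Y-linked genes. Both kinds of read were present in libraries 3 of 3D-2D-3D, 3D and 2D and throughout 3D-2D-2D, 3D-5days and 2D-5days. The cultures on substrates of stated stiffness had Y-linked reads and at most 7 Xist reads. The total of gene counts was 8509987 to 29909400 per library. Whether the libraries within a group are separate cultures is not stated, so the p-values rest on a spread that may be technical. All 10 fibroblast markers examined, such as Col1a1 and Pdgfra, had reads in every group, but their levels were uneven between groups, as given below.

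Levels below are CPM (read counts scaled to the TMM-adjusted library total), and are compared between libraries for 1 gene at a time, not between genes. Fold changes are log2 values ± standard error from edgeR's quasi-likelihood test, with n = 3 libraries a group except n = 2 for 3D-2D. A gene was called at a Benjamini-Hochberg adjusted p under 0.05 over all genes tested.

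Over the 10 groups the ligand genes Bmp4 and Bmp6 and the response genes Smad6, Id1 and Id3 shared their highest groups. Bmp4 averaged 145 ± 5.16 CPM in 3D-2D-2D and 122 ± 26.6 CPM in 2D-5days cultures (SD, n = 3 each), and the next group, 2D, averaged 19.7 ± 5.24 CPM. Its lowest groups were 3D-2D-3D, 3D and 3D-5days, at 1.77 ± 0.819, 1.52 ± 0.267 and 1.51 ± 0.368 CPM (SD, n = 3 each). Along this order the groups fell apart at 2 places: between the highest pair and 2D, and between the 8 kPa cultures and the 3 lowest groups. Neighbours elsewhere in the order overlapped.

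Bmp6 had the same top pair, at 122 ± 4.23 CPM in 3D-2D-2D and 111 ± 13.98 CPM in 2D-5days (SD, n = 3 each), and was lowest in 3D-2D, at 16.8 and 12.2 CPM. Gdf6, a further ligand gene, differed from Bmp4 and Bmp6 in that 2D joined the top pair: it averaged 480.4 ± 36.6 CPM in 2D-5days, 456 ± 89.9 CPM in 2D and 452 ± 11.5 CPM in 3D-2D-2D cultures (SD, n = 3 each). The libraries of these 3 groups overlapped. Of the 9 neighbouring pairs of groups, 5 did not overlap for Gdf6, more than for any other member, and the highest group mean was 21.9 times the lowest.

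The inhibitory Smad gene Smad6 was highest in 2D-5days, at 279.7, 387 and 386 CPM, and in 3D-2D-2D, at 292, 277 and 272 CPM. Every other library lay at or below 89.7 CPM, and the lowest group was 3D-5days, at 40.1, 26.7 and 30.03 CPM. Id1 and Id3, which encode helix-loop-helix proteins that bind other such factors and keep them from DNA, had the same 2 top groups. Below them, neighbouring groups overlapped for Smad6 and Id1 without a break. Across the 10 group means Smad6 and Id1 had Pearson's r = 0.964 and Spearman's rho = 0.964, and Bmp4 and Gdf6 had Spearman's rho = 0.988. These correlations are descriptions over groups that share library sets.

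Bmp2 and Grem1 had their highest means in another group. Bmp2 had 24.4, 23.7 and 60.99 CPM in 3D-2D-3D cultures, against at most 5.47 CPM in any other library. Grem1 likewise had its highest mean in 3D-2D-3D, with 35.6, 33.1 and 124 CPM. Libraries 1 and 2 of that group were not apart from 3D library 3, at 38.7 CPM, and 2D-0.5kPa library 2, at 33.9 CPM. The lowest Grem1 mean was in 3D-2D-2D, with 0.337, 0.122 and 0.455 CPM from 4, 1 and 5 reads. In both 3D and 2D, Grem1 was near 0 in libraries 1 and 2 and far higher in library 3. Id2, the third Id gene, was highest in 3D libraries 1 and 2 and in 3D-5days library 1.

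**Figure D1:**
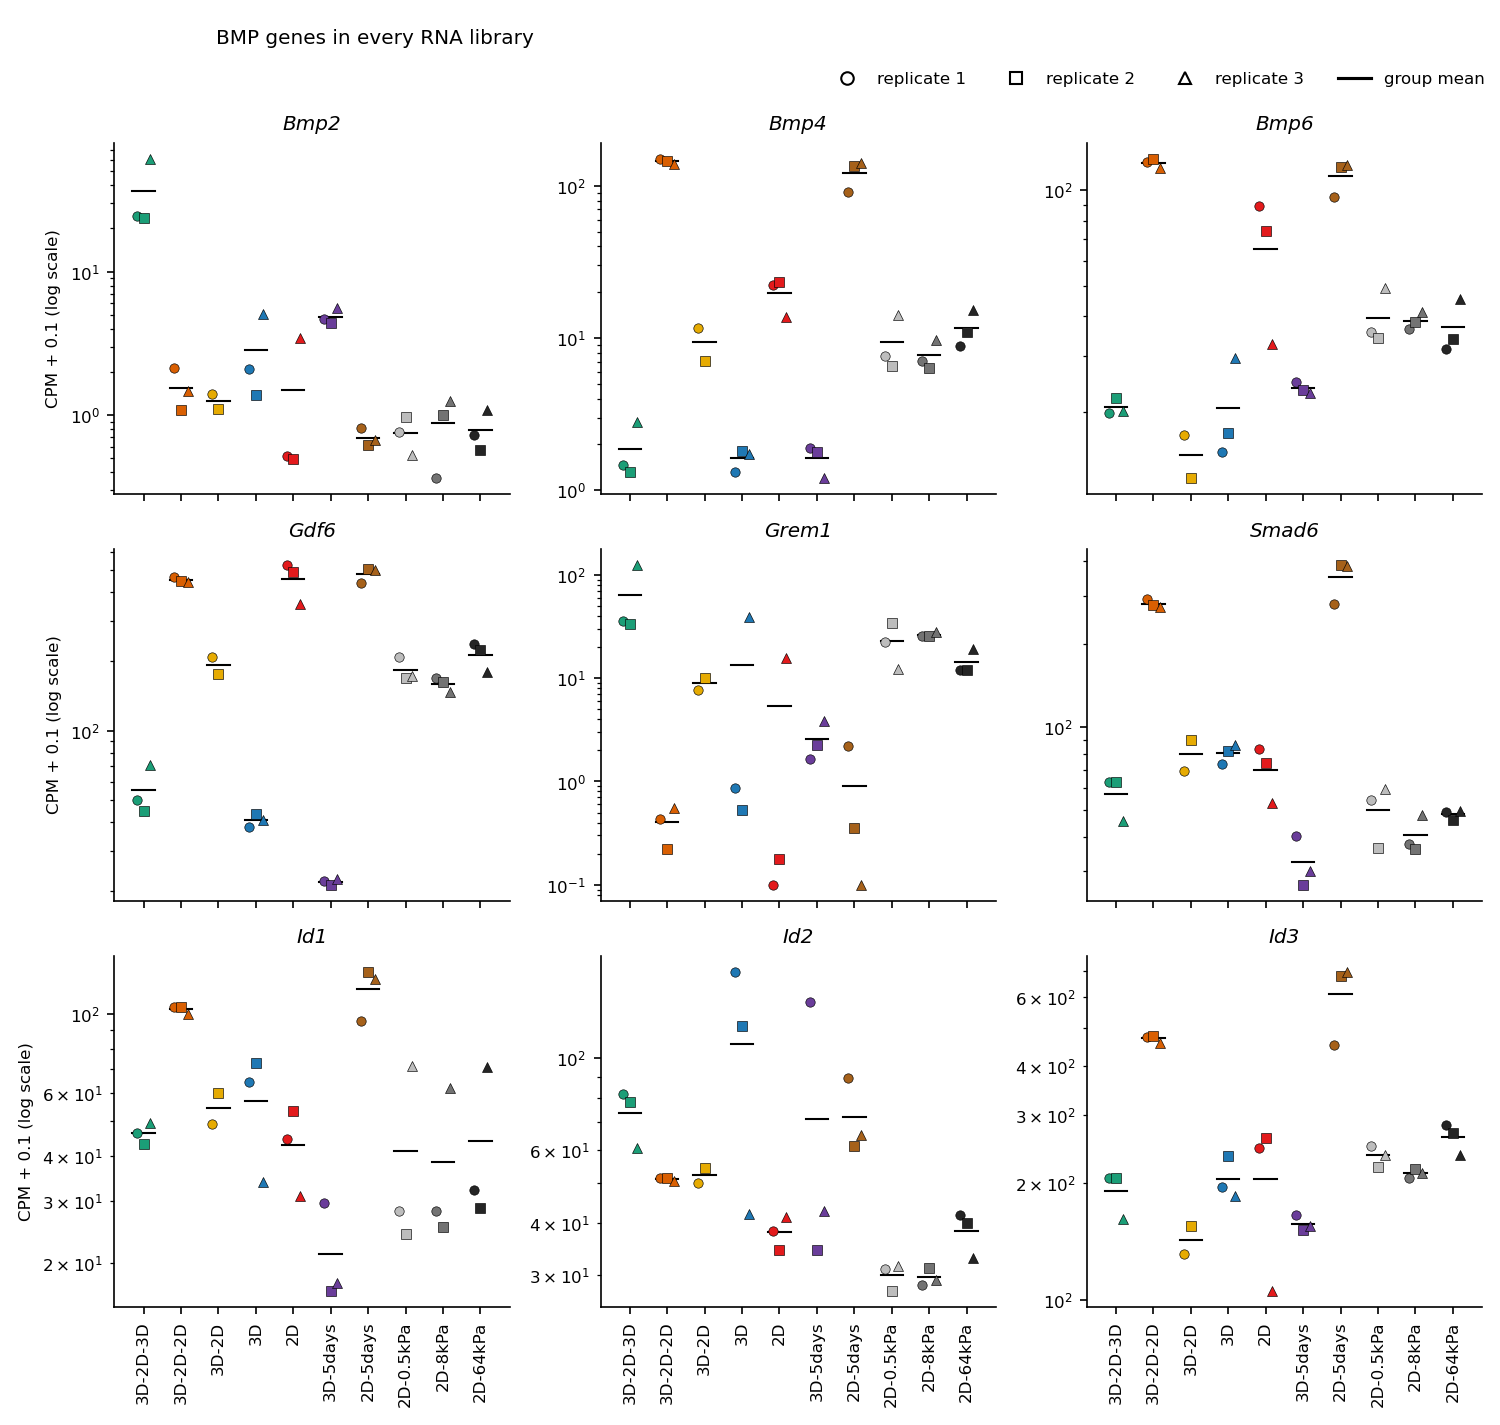
Level of each of the 9 genes in all 29 RNA libraries, as CPM with 0.1 added on a log axis, by culture group; symbols mark the replicate number and bars the group mean. The 3D-2D-2D and 2D-5days libraries sit above all others for Bmp4, Smad6, Id1 and Id3, and the 3D-2D-3D libraries sit above all others for Bmp2.

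The comparison of 3D with 2D cultures asked how the arrangement of the cells relates to their expression. The ligand genes Bmp4, Bmp6 and Gdf6 were lower in 3D and Id2 was higher, while Bmp2, Grem1, Smad6, Id1 and Id3 were not called. Thus 4 of 9 members were called, beside 54.0% of all genes tested (26.7% higher and 27.3% lower), and the median log2 change was 0.20 over the members and 0.035 over all genes. A share of this size is near the background.

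Bmp4 had 1.22, 1.72 and 1.63 CPM in 3D libraries, against 22.3, 23.2 and 13.7 CPM in 2D libraries, a log2 change of -3.67 ± 0.35, adjusted p = 1.61e-08. Gdf6 had 37.9, 43.5 and 40.7 CPM in 3D, against 523, 491 and 354 CPM in 2D (-3.48 ± 0.16, adjusted p = 4.38e-13). For both ligand genes all 3D libraries lay far below all 2D libraries. Their differences were also present within each library set, at -3.96 for Bmp4 and -3.66 for Gdf6 in libraries 1 and 2, and at -3.05 and -3.10 between the libraries 3, where a lone library is assumed to vary like the other groups. Smooth muscle markers were lower in 3D for 4 of 5, summing to 49.6 to 63.5 CPM in 3D and 217 to 267 CPM in 2D, and epicardial and mesothelial markers for 2 of 5 tested, at 3.66 to 11.6 CPM in 3D and 18.7 to 24.2 CPM in 2D. None on either of these lists was at 0. Other lists ran the other way, with 3 of 5 tested pericyte, 3 of 14 endothelial, 2 of 2 Schwann cell and 1 of 5 cardiomyocyte markers higher in 3D and 0 lower. Of 10 fibroblast markers 1 was higher and 2 lower. Of all genes tested 26.7% were higher and 27.3% lower, and the part of any list was not tested.

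Bmp6 had 14.9, 17.1 and 29.4 CPM in 3D, against 89.1, 74.1 and 32.7 CPM in 2D (-1.66 ± 0.27, adjusted p = 2.11e-05). The 3D libraries lay below the 2D libraries, but the libraries 3 were close to each other, with a change of -0.13 (adjusted p = 0.711), while libraries 1 and 2 gave -2.37. Fitted in these 2 groups alone, Bmp6 was called (adjusted p = 0.028), and with the replicate number as a block in that fit it was at -1.63 and no longer called (adjusted p = 0.0986).

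Id2 had 162, 119.8 and 42.03 CPM in 3D, against 38.1, 34.3 and 41.1 CPM in 2D (1.51 ± 0.39, adjusted p = 0.00267). Libraries 1 and 2 of 3D were high and library 3 lay beside the 2D libraries. Between the libraries 3 the change was 0.048 (adjusted p = 0.959), and with the replicate block in a fit of these 2 groups Id2 was no longer called (1.33, adjusted p = 0.112). Of 15 macrophage markers 4 were higher in 3D and 0 lower, beside 26.7% of all genes tested called higher. Their summed level was 8891, 6235 and 226 CPM in the 3D libraries 1, 2 and 3, against 1252, 1343 and 1535 CPM in the 2D libraries, with none of the 15 at 0 in either group. The part of these markers in the Id2 result was not tested, and in bulk RNA fewer cells of a type cannot be told apart from less RNA per cell.

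Bmp2 had 1.98, 1.29 and 4.96 CPM in 3D, against 0.416, 0.394 and 3.35 CPM in 2D, and Grem1 had 0.762, 0.430 and 38.7 CPM in 3D, against 0, 0.0789 and 15.6 CPM in 2D. A count of 0 in 2D library 1 allows up to 3 reads, or 0.249 CPM. For both genes library 3 was the high one in each group. Neither fitted change, 0.84 ± 0.59 for Bmp2 and 1.24 ± 1.16 for Grem1, passed the threshold (adjusted p = 0.234 and 0.38). Bmp2 was higher in 3D in all 3 numbered pairs, and in libraries 1 and 2 alone it was called (1.96, adjusted p = 0.0134), while Grem1 was not (adjusted p = 0.152). With the replicate block in a fit of these 2 groups, Bmp2 was at 1.34 (adjusted p = 0.0761) and Grem1 at 1.86 (adjusted p = 0.0829). Without 2D replicate 3, Bmp2 was at 2.76 and Grem1 at 8.12, both called, and without 3D replicate 3, Grem1 was at -3.27, called in the other direction.

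Smad6 (0.20 ± 0.19), Id1 (0.41 ± 0.40) and Id3 (0.0062 ± 0.21) were not called between 3D and 2D, with overlapping libraries in each case. Id3 had 196, 234 and 185 CPM in 3D, against 246, 261 and 106 CPM in 2D. Its 2D library 3 was the lowest of the 6, and between the libraries 3 alone Id3 was higher in 3D, at 0.83 (adjusted p = 0.00775).

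Among other genes of the pathway, 8 of 13 tested receptors and co-receptors were called between 3D and 2D, 5 higher and 3 lower. Acvrl1 (ALK1), a type I receptor of the family, was lower (-1.97 ± 0.20), as was the BMP type I receptor gene Bmpr1b (-3.90 ± 0.41), and Bambi, which encodes a decoy receptor without a kinase, was higher (2.11 ± 0.28). Of 14 tested antagonists and ligand-binding proteins 4 were higher and 5 lower, with Crim1 (-3.20 ± 0.16) and the follistatin gene Fst (-1.63 ± 0.22) among those that fell and Nbl1 (1.53 ± 0.24) among those that rose. Of 5 tested other ligands Gdf10 was higher (3.57 ± 0.90) and Bmp3 lower (-2.43 ± 0.70). Of 8 tested other response genes 2 were higher and 2 lower, and of 13 signal transducers 2 were higher and 4 lower. These counts stand beside 54.0% of all genes tested called between 3D and 2D, 26.7% higher and 27.3% lower.

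**Figure D2:**
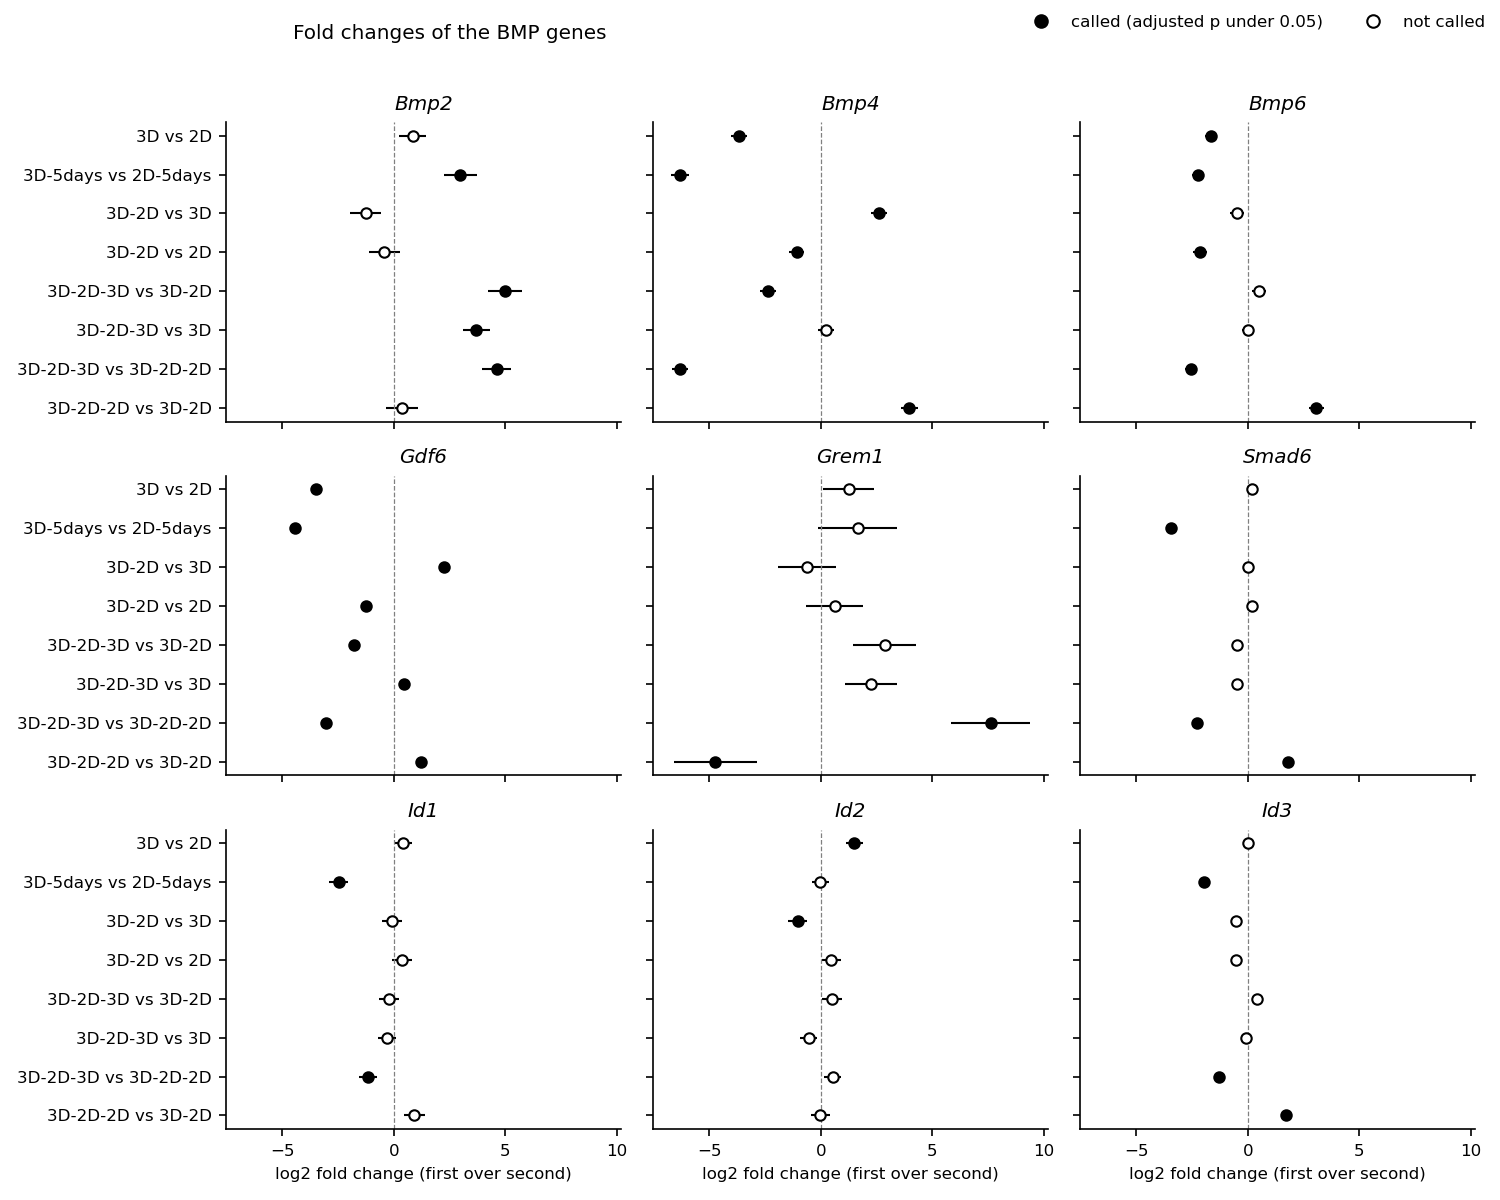
Log2 fold change of each gene in 8 comparisons, first-named group over second, with bars of 1 standard error; filled points were called at an adjusted p under 0.05. Bmp4 and Gdf6 lie below 0 in 3D against 2D and at 5 days, and Bmp2 lies above 0 in all 3 comparisons led by 3D-2D-3D.

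At 5 days the members that were lower in 3D included response genes as well as ligand genes. In 3D-5days against 2D-5days cultures 7 of 9 members were called, beside 32.4% of all genes tested (14.9% higher and 17.5% lower): Bmp2 was higher, and Bmp4, Bmp6, Gdf6, Smad6, Id1 and Id3 were lower. The median log2 change was -2.23 over the members and 0.0033 over all genes.

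Among the ligand genes, Bmp4 had 1.78, 1.67 and 1.09 CPM in 3D-5days, against 91.5, 134 and 140.3 CPM in 2D-5days (-6.33 ± 0.39, adjusted p = 5.6e-11). Gdf6 had 22.02, 21.3 and 22.6 CPM in 3D-5days, against 438, 503 and 499.9 CPM in 2D-5days (-4.45 ± 0.17, adjusted p = 6.99e-14). Each was lower in every 3D-5days library than in any 2D-5days library, and the 3D-5days libraries were close to each other. Bmp6 was lower as well, at 24.8, 23.4 and 22.8 CPM in 3D-5days, against 94.8, 118 and 119.9 CPM in 2D-5days (-2.23 ± 0.27). Bmp2 ran the other way, with 4.56, 4.26 and 5.47 CPM in 3D-5days, against 0.709, 0.514 and 0.565 CPM in 2D-5days (2.98 ± 0.74, adjusted p = 0.00355). The 2D-5days values of Bmp2 come from 6, 4 and 5 reads.

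Of the response genes, Smad6 had 40.1, 26.7 and 30.03 CPM in 3D-5days, against 279.7, 387 and 386 CPM in 2D-5days (-3.44 ± 0.21, adjusted p = 3.97e-11). Id1 had 29.4, 16.6 and 17.5 CPM in 3D-5days, against 95.5, 131 and 125 CPM in 2D-5days (-2.48 ± 0.43, adjusted p = 0.000127). Id3 had 165, 152 and 155 CPM in 3D-5days, against 454, 681 and 698 CPM in 2D-5days (-1.96 ± 0.22, adjusted p = 4.06e-07). The groups did not overlap for any of the 3, and library 1 was the lowest of the 2D-5days libraries for each.

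Id2 did not follow the other Id genes. It had 136, 34.3 and 42.6 CPM in 3D-5days, against 89.5, 61.2 and 64.99 CPM in 2D-5days (-0.021 ± 0.39, adjusted p = 0.978). Library 1 was the high one in both groups, and without 3D-5days replicate 1 Id2 was lower, at -0.90 (adjusted p = 0.0392). The summed macrophage markers were also highest in these libraries, at 12127, 3217 and 3842 CPM in 3D-5days libraries 1, 2 and 3, against 3093, 758 and 754 CPM in 2D-5days libraries 1, 2 and 3. Their part in the Id2 values was not tested. In 3D-2D-3D the same sum was only 236 to 259 CPM, with Id2 at 82.03, 78.1 and 60.7 CPM.

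Grem1 was low at 5 days, with 1.56, 2.17 and 3.78 CPM in 3D-5days, against 2.13, 0.257 and 0 CPM in 2D-5days, and was not called (1.64 ± 1.79, adjusted p = 0.52). The groups overlapped, and the 0 in 2D-5days library 3 allows up to 0.339 CPM.

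Markers of other cell types were set beside the response genes at 5 days. Of 14 tested endothelial markers, from a cell type known for strong BMP responses, 11 were higher in 3D-5days and 0 lower, and thus ran opposite to Smad6, Id1 and Id3. They summed to 136 to 161 CPM in 3D-5days, against 45.9 to 51.1 CPM in 2D-5days, with the cadherin gene Cdh5 at 24.8 CPM in 3D-5days and 1.95 CPM in 2D-5days and Sox17 at 0 in 2D-5days. Of 5 tested pericyte markers 2 were higher and 1 lower in 3D-5days, with a median log2 change of 1.27. Their sum was nonetheless lower in 3D-5days, at 81.5 to 89.3 CPM against 343 to 418 CPM in 2D-5days, since Notch3 held most of it (78.2 CPM in 3D-5days and 386 CPM in 2D-5days). Kcnj8 was at 1.28 CPM in 3D-5days and at 0 in 2D-5days, and Higd1b was at 0 in both.

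Summed smooth muscle markers and summed epicardial and mesothelial markers were, like Smad6, Id1 and Id3, lower in 3D-5days libraries. Of 5 tested smooth muscle markers, some of which activated fibroblasts are also known to express, 4 were lower in 3D-5days and 0 higher, with a median log2 change of -2.77. They summed to 33.5 to 61.7 CPM in 3D-5days, against 80.4 to 114 CPM in 2D-5days, and none was at 0. Of 5 tested epicardial and mesothelial markers 2 were lower in 3D-5days and 0 higher. The 6 on this list summed to 0.298 to 1.67 CPM in 3D-5days, against 24.5 to 33.1 CPM in 2D-5days, mostly from Upk3b, at 0 in 3D-5days and 22.5 CPM in 2D-5days, with Msln at 0 in 3D-5days and Krt8 at 0 in 2D-5days. This sum was highest in 3D-2D-2D cultures, at 72.9 to 79.4 CPM, as was the mean of Bmp4, but the likeness did not hold in other groups. In 3D-2D the sum was 23.9 to 30.3 CPM, near that in 2D-5days, while Bmp4 averaged 9.25 CPM in 3D-2D and 122 CPM in 2D-5days. Of 10 fibroblast markers 3 were lower in 3D-5days and 0 higher, beside 32.4% of all genes called. They summed to 28153 to 53041 CPM in 3D-5days, against 39040 to 65125 CPM in 2D-5days. Whether cells of any of these types had a part in the BMP response genes was not tested.

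Of 8 tested other response genes of the pathway, 3 were lower at 5 days, 0 were higher and 5 were not called, a share near the 32.4% of all genes. The 3 were Atoh8 (-2.88 ± 0.27), a transcription factor gene induced by BMP in endothelial cells, Id4 (-3.39 ± 0.42) and the T-box gene Tbx20 (-1.86 ± 0.23). Of 13 signal transducers and intracellular inhibitors 5 were lower and 0 higher, with the inhibitory Smad gene Smad7 (-2.17 ± 0.24) and the receptor-activated Smad gene Smad9 (-1.57 ± 0.32) among them. The receptors included Acvrl1, lower at -2.28 ± 0.20, and Bambi, higher at 2.13 ± 0.30, among 4 higher and 3 lower of 13. Of 14 antagonists 2 were higher and 6 lower, with Bmper (2.62 ± 0.27) higher and Crim1 (-3.12 ± 0.16) and Fst (-2.40 ± 0.22) lower. Of 5 tested other ligands 1 was higher and 1, Bmp3, was lower (-6.12 ± 0.70). The counts of these lists stand beside 14.9% of all genes tested called higher and 17.5% called lower.

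**Figure D3:**
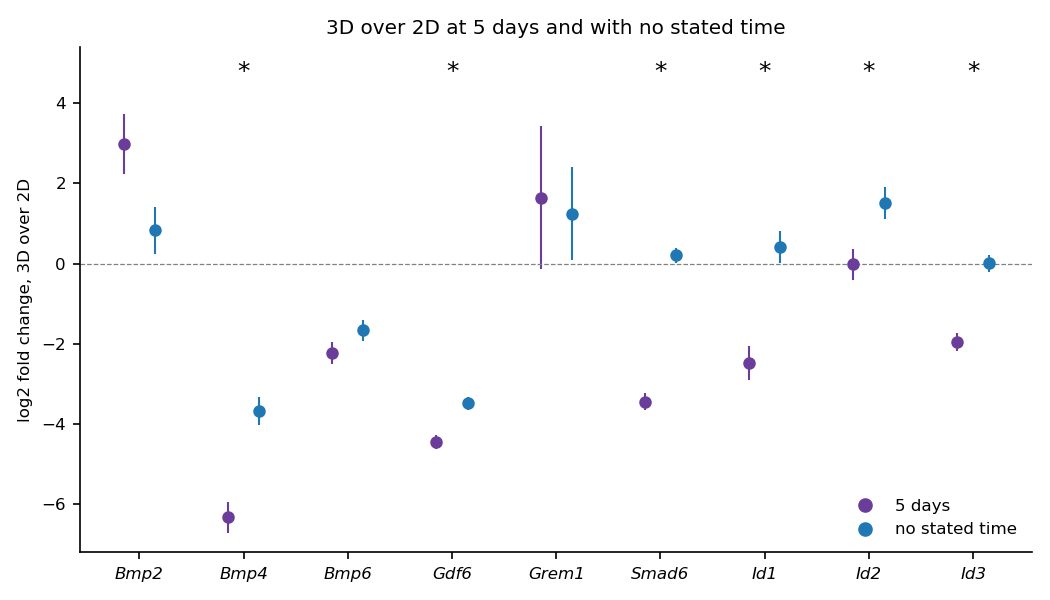
Log2 fold change of 3D over 2D for each gene at 5 days (left point of a pair) and in the cultures with no stated time (right point), with bars of 1 standard error; a star marks a gene whose 2 changes differed at an adjusted p under 0.05. Smad6, Id1 and Id3 lie near 0 with no stated time and between -3.44 and -1.96 at 5 days.

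Whether the 3D difference at 5 days equalled that with no stated time was tested as a difference of differences, in which the 5-day change minus the other change was fitted. It was called for 6 of 9 members, all lower at 5 days, beside 25.5% of all genes tested (12.3% higher and 13.2% lower). The difference was -3.65 ± 0.28, adjusted p = 2.35e-08 for Smad6, -2.89 ± 0.59, adjusted p = 0.00117 for Id1 and -1.96 ± 0.30, adjusted p = 8.16e-05 for Id3. These 3 response genes were not called between 3D and 2D with no stated time. Bmp4 (-2.65 ± 0.51) and Gdf6 (-0.97 ± 0.21) were lower in 3D at both times and more so at 5 days. Id2 (-1.53 ± 0.55, adjusted p = 0.044) was near the threshold, and Bmp6 (-0.57 ± 0.37), Bmp2 (2.14 ± 0.96) and Grem1 (0.40 ± 2.14) were not called. The 5-day libraries and libraries 1 and 2 of 3D and 2D differ in origin by their Xist and Y-linked reads, so that time and library set cannot be told apart in this contrast.

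The 3D-2D cultures were compared with 3D and with 2D, which share the 3D-2D libraries. Against 3D, Bmp4 and Gdf6 were higher in 3D-2D and Id2 was lower, 3 of 9 members beside 56.5% of all genes tested (28.8% higher and 27.7% lower). Bmp4 had 11.6 and 6.92 CPM in 3D-2D, against 1.22, 1.72 and 1.63 CPM in 3D (2.59 ± 0.36, adjusted p = 3.58e-06), and Gdf6 had 209 and 176 CPM in 3D-2D, against 37.9, 43.5 and 40.7 CPM in 3D (2.24 ± 0.17, adjusted p = 5.11e-10). Neither overlapped, and both changes stood within the same library set, without 3D replicate 3, at 2.65 and 2.24. Bmp6, at 16.8 and 12.2 CPM in 3D-2D and 14.9, 17.1 and 29.4 CPM in 3D, was not called (-0.50 ± 0.30).

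Id2 had 49.9 and 54.2 CPM in 3D-2D, against 162, 119.8 and 42.03 CPM in 3D (-1.05 ± 0.44, adjusted p = 0.0473), and lost its call without 3D replicate 1 (-0.64, adjusted p = 0.228), without 3D replicate 2 (adjusted p = 0.0973) and without either 3D-2D library. The summed macrophage markers were 635 to 858 CPM in 3D-2D and 226 to 8891 CPM in 3D, and their part was not tested. Grem1, at 7.64 and 9.93 CPM in 3D-2D, lay between library 3 of 3D and its libraries 1 and 2; it was not called (-0.62 ± 1.29) but was higher without 3D replicate 3 (3.88, adjusted p = 0.0185).

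Against 2D, the 3 ligand genes Bmp4, Bmp6 and Gdf6 were lower in 3D-2D, 3 of 9 members beside 14.4% of all genes tested (6.85% higher and 7.54% lower). Gdf6 had 209 and 176 CPM in 3D-2D, against 523, 491 and 354 CPM in 2D (-1.24 ± 0.17, adjusted p = 0.000164). Bmp6 had 16.8 and 12.2 CPM in 3D-2D, against 89.1, 74.1 and 32.7 CPM in 2D (-2.16 ± 0.32, adjusted p = 0.000232), and Bmp4 was at -1.08 ± 0.34 (adjusted p = 0.036). Gdf6 and Bmp4 in 3D-2D thus lay between the 3D and the 2D libraries, while Bmp6 was no higher than in 3D. In an edgeR fit of 3D-2D and 2D alone, Bmp6 (-2.18, adjusted p = 0.0654) and Bmp4 (-1.10, adjusted p = 0.106) were not called. The Bmp4 call was lost without either 3D-2D library and without 2D replicate 1 or 2, at -1.52 to -0.76, and the count of members called was 5 without 2D replicate 3, when Grem1 (7.50) and Id3 (-0.83) were added.

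Cultures returned to 3D, labelled 3D-2D-3D, had Bmp4 and Gdf6 levels near those of 3D and a Bmp2 level of their own. Against 3D-2D, 3 of 9 members were called beside 49.2% of all genes tested (24.2% higher and 25.0% lower): Bmp2 was higher, and Bmp4 and Gdf6 were lower. Bmp2 had 24.4, 23.7 and 60.99 CPM in 3D-2D-3D, against 1.29 and 1.003 CPM in 3D-2D (4.97 ± 0.76, adjusted p = 1.45e-05). Bmp4 had 1.36, 1.23 and 2.71 CPM in 3D-2D-3D, against 11.6 and 6.92 CPM in 3D-2D (-2.37 ± 0.35), and Gdf6 changed by -1.81 ± 0.16. None of these groups overlapped, and within the shared library set, without 3D-2D-3D replicate 3, the changes were 4.35 for Bmp2, -2.85 for Bmp4 and -2.05 for Gdf6.

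Against the first 3D cultures, 2 of 9 members were called beside 23.0% of all genes tested (11.2% higher and 11.8% lower), both higher in 3D-2D-3D. Bmp2 had 24.4, 23.7 and 60.99 CPM in 3D-2D-3D, against 1.98, 1.29 and 4.96 CPM in 3D (3.70 ± 0.59, adjusted p = 0.00016). Every 3D-2D-3D library was above every 3D library, and library 3 was the highest in both groups. Gdf6, at 49.7, 44.8 and 70.5 CPM in 3D-2D-3D and 37.9, 43.5 and 40.7 CPM in 3D, was called at 0.43 ± 0.15, adjusted p = 0.0398, but the call was lost without 3D-2D-3D replicate 3 (0.19), without 3D-2D-3D replicate 1, without any 1 of the 3D libraries, and with the replicate block (0.37, adjusted p = 0.218). The call was also lost when the compared groups were fitted alone without a block (0.39, adjusted p = 0.195). The fit of all libraries called 3227 genes, the compared groups alone 1485 genes and 1 member, and the compared groups with the block 1587 genes and 1 member. Without 3D replicate 3, Grem1 (6.73) was called higher and Id2 (-0.95) lower in 3D-2D-3D.

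The comparison of 3D-2D-3D with 3D-2D-2D cultures asked what differs between cells returned to 3D and cells kept in 2D. Here 8 of 9 members were called beside 40.4% of all genes tested (19.8% higher and 20.6% lower). Bmp2 and Grem1 were higher in 3D-2D-3D, and Bmp4, Bmp6, Gdf6, Smad6, Id1 and Id3 were lower; Id2 was not called. It had 82.03, 78.1 and 60.7 CPM in 3D-2D-3D, against 51.1, 51.3 and 50.4 CPM in 3D-2D-2D, without overlap (0.53 ± 0.39, adjusted p = 0.291). In a fit of these 2 groups alone it was called higher (0.54, adjusted p = 0.00375). The median log2 change was -1.30 over the members and -0.0088 over all genes. Libraries 1 and 2 of 3D-2D-3D held 1 and 0 Y-linked reads, against 663 to 960 in 3D-2D-2D libraries. For these, the arrangement and the origin of the libraries cannot be told apart. Library 3 of 3D-2D-3D held 2620 Y-linked reads, and whether it shares an origin with 3D-2D-2D is not stated.

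Bmp4 had 1.36, 1.23 and 2.71 CPM in 3D-2D-3D, against 149.9, 145 and 139.5 CPM in 3D-2D-2D (-6.33 ± 0.37, adjusted p = 2.3e-11). Bmp6 had 19.7, 22.1 and 20.1 CPM in 3D-2D-3D, against 123, 125 and 117 CPM in 3D-2D-2D (-2.56 ± 0.27). Gdf6 had 49.7, 44.8 and 70.5 CPM in 3D-2D-3D, against 465, 446 and 444 CPM in 3D-2D-2D (-3.04 ± 0.16). These 3 ligand genes were lower in every 3D-2D-3D library than in any 3D-2D-2D library. Bmp2, in contrast, had 24.4, 23.7 and 60.99 CPM in 3D-2D-3D, against 2.02, 0.980 and 1.36 CPM in 3D-2D-2D (4.61 ± 0.65, adjusted p = 7.08e-06).

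Grem1, the antagonist, had 35.6, 33.1 and 124 CPM in 3D-2D-3D, against 0.337, 0.122 and 0.455 CPM in 3D-2D-2D (7.61 ± 1.76, adjusted p = 0.0015). With 4, 1 and 5 reads in 3D-2D-2D the size of that change is imprecise, but the groups were far apart. Smad6 had 63.3, 63.1 and 45.7 CPM in 3D-2D-3D, against 292, 277 and 272 CPM in 3D-2D-2D (-2.29 ± 0.20, adjusted p = 8.78e-09). Id3 had 206, 206 and 162 CPM in 3D-2D-3D, against 476, 476 and 459 CPM in 3D-2D-2D (-1.30 ± 0.22). Both response genes were lower in all 3D-2D-3D libraries. Id1, with 46.5, 43.3 and 49.5 CPM in 3D-2D-3D against 104, 104 and 100.2 CPM in 3D-2D-2D, did not overlap either (-1.15 ± 0.41, adjusted p = 0.0279), but its call was lost when any 1 of the 6 libraries was left out, at -1.19 to -1.09.

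Among the other pathway genes in this contrast, Atoh8 (-3.35 ± 0.27) and Id4 (-2.04 ± 0.36) were lower and Runx2 (0.99 ± 0.18), the bone transcription factor gene, was higher, so that of 8 tested response genes 1 was higher and 2 lower. Of 13 transducers 6 were higher and 2 lower, with Smad7 (-1.19 ± 0.23) among those lower. The receptors had 4 higher and 2 lower of 13, with Bambi higher (2.66 ± 0.30) and Acvrl1 lower (-3.75 ± 0.21). The antagonists had 4 higher and 5 lower of 14, and of 5 tested ligands Bmp3 (-6.16 ± 0.63) and Gdf10 (-3.65 ± 0.80) were lower. These counts stand beside 40.4% of all genes tested called, 19.8% higher and 20.6% lower.

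Other cell types' markers were uneven in the same contrast. Of 14 tested endothelial markers 2 were higher and 6 lower in 3D-2D-3D, with a median log2 change of -1.52, and Cdh5 was at 6.50 CPM in 3D-2D-3D and 12.2 CPM in 3D-2D-2D. The endothelial sum ran the other way, at 158 to 229 CPM in 3D-2D-3D and 89.97 to 96.3 CPM in 3D-2D-2D, through Flt1 alone, at 139 CPM in 3D-2D-3D and 8.97 CPM in 3D-2D-2D. Of 5 tested pericyte markers 1 was higher and 2 lower. Notch3 was at 115 CPM in 3D-2D-3D and 385 CPM in 3D-2D-2D, Cspg4 was at 131 CPM in 3D-2D-3D and 3.99 CPM in 3D-2D-2D, and the 6 on the list, Higd1b at 0 in both groups, summed to 221 to 296 CPM in 3D-2D-3D and 386 to 409 CPM in 3D-2D-2D. Smooth muscle markers were lower for 3 of 5 and higher for 0. Epicardial and mesothelial markers were lower for 2 and higher for 1 of 5 tested, with sums of 5.87 to 19.1 CPM in 3D-2D-3D and 72.9 to 79.4 CPM in 3D-2D-2D. Fibroblast markers were lower for 6 of 10 and higher for 0, beside 20.6% of all genes tested lower and 19.8% higher. They summed to 18439 to 25324 CPM in 3D-2D-3D and 69792 to 75968 CPM in 3D-2D-2D. The part of these cell types in the results was not tested.

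The 3D-2D-2D cultures were also set against 3D-2D. Of 9 members 6 were called, 5 higher and 1 lower in 3D-2D-2D, beside 46.5% of all genes tested (22.9% higher and 23.6% lower). Bmp4 had 149.9, 145 and 139.5 CPM in 3D-2D-2D, against 11.6 and 6.92 CPM in 3D-2D (3.96 ± 0.38, adjusted p = 6.37e-08). Smad6 had 292, 277 and 272 CPM in 3D-2D-2D, against 69.4 and 89.7 CPM in 3D-2D (1.82 ± 0.23, adjusted p = 1.59e-06). Bmp6 (3.06 ± 0.33), Gdf6 (1.23 ± 0.17) and Id3 (1.72 ± 0.25) were likewise higher in every 3D-2D-2D library than in either 3D-2D library.

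Id1 had 104, 104 and 100.2 CPM in 3D-2D-2D, against 49.00 and 59.96 CPM in 3D-2D, without overlap, and was not called (0.92 ± 0.46, adjusted p = 0.109). In a fit of these 2 groups alone it was called higher (0.92, adjusted p = 2.96e-08). Grem1 was lower (-4.74 ± 1.87, adjusted p = 0.0419), but its call was lost when any 1 of the 5 libraries was left out, at -5.11 to -4.42. Since 3D-2D-2D libraries held 663 to 960 Y-linked reads and the 3D-2D libraries held 0, the arrangement and the origin of the libraries cannot be told apart here. Of 14 tested endothelial markers 8 were higher in 3D-2D-2D than in 3D-2D and 0 lower, with sums of 89.97 to 96.3 CPM in 3D-2D-2D and 26.2 to 37.3 CPM in 3D-2D and Cldn5 at 0 in 3D-2D. Of 5 tested pericyte markers 3 were higher and 1 lower. Of 10 fibroblast markers 7 were higher and 0 lower, with sums of 69792 to 75968 CPM in 3D-2D-2D and 19382 to 19558 CPM in 3D-2D. The part of these lists was not tested.

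Substrate stiffness was compared among 2D cultures at 0.5, 8 and 64 kPa. In the fit without the replicate number, 0 members and 0 genes were called in each of the 3 pairs, 0% of all genes tested, by edgeR's quasi-likelihood test and by DESeq2, with 82, 175 and 241 genes at an unadjusted p under 0.05 for 0.5 against 8, 0.5 against 64 and 8 against 64 kPa. The replicate numbers passed the criterion for pairs, and with the number as a block, in fits of the 2 groups compared, 5 members and 608 genes were called between 8 and 64 kPa, against 0 genes in the same 2 groups without the block.

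Under that block Bmp4 (-0.61, adjusted p = 0.0162), Gdf6 (-0.42, 0.000484), Id2 (-0.38, 0.0175) and Id3 (-0.31, 0.00847) were lower at 8 kPa, and Grem1 was higher (0.91, 0.000894). By library, Bmp4 had 6.98, 6.23 and 9.55 CPM at 8 kPa, against 8.75, 10.8 and 15.2 CPM at 64 kPa in libraries 1, 2 and 3. Gdf6 had 169, 163 and 147 CPM at 8 kPa, against 237, 223 and 179 CPM at 64 kPa. Grem1 had 25.5, 25.5 and 27.8 CPM at 8 kPa, against 11.9, 11.8 and 19.2 CPM at 64 kPa. Each of the 5 genes had the same direction in all 3 pairs of numbers, but they were picked by that fit. Smad6 and Id1, which were not called, also ran the same way in all 3 pairs.

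Id2 had 28.3, 31.1 and 28.97 CPM at 8 kPa, against 41.7, 39.9 and 32.7 CPM at 64 kPa, and the summed macrophage markers were 1579, 1415 and 405 CPM at 8 kPa, against 2709, 2653 and 582 CPM at 64 kPa in libraries 1, 2 and 3; their part was not tested. Id1 did not separate the substrates, with library 3 high at each stiffness: 27.9, 24.1 and 71.5 CPM at 0.5 kPa, 27.9, 25.2 and 62.05 CPM at 8 kPa and 32.1, 28.5 and 71.02 CPM at 64 kPa. With the block, 2 genes and 0 members were called between 0.5 and 8 kPa, and 0 genes between 0.5 and 64 kPa.

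**Figure D4:**
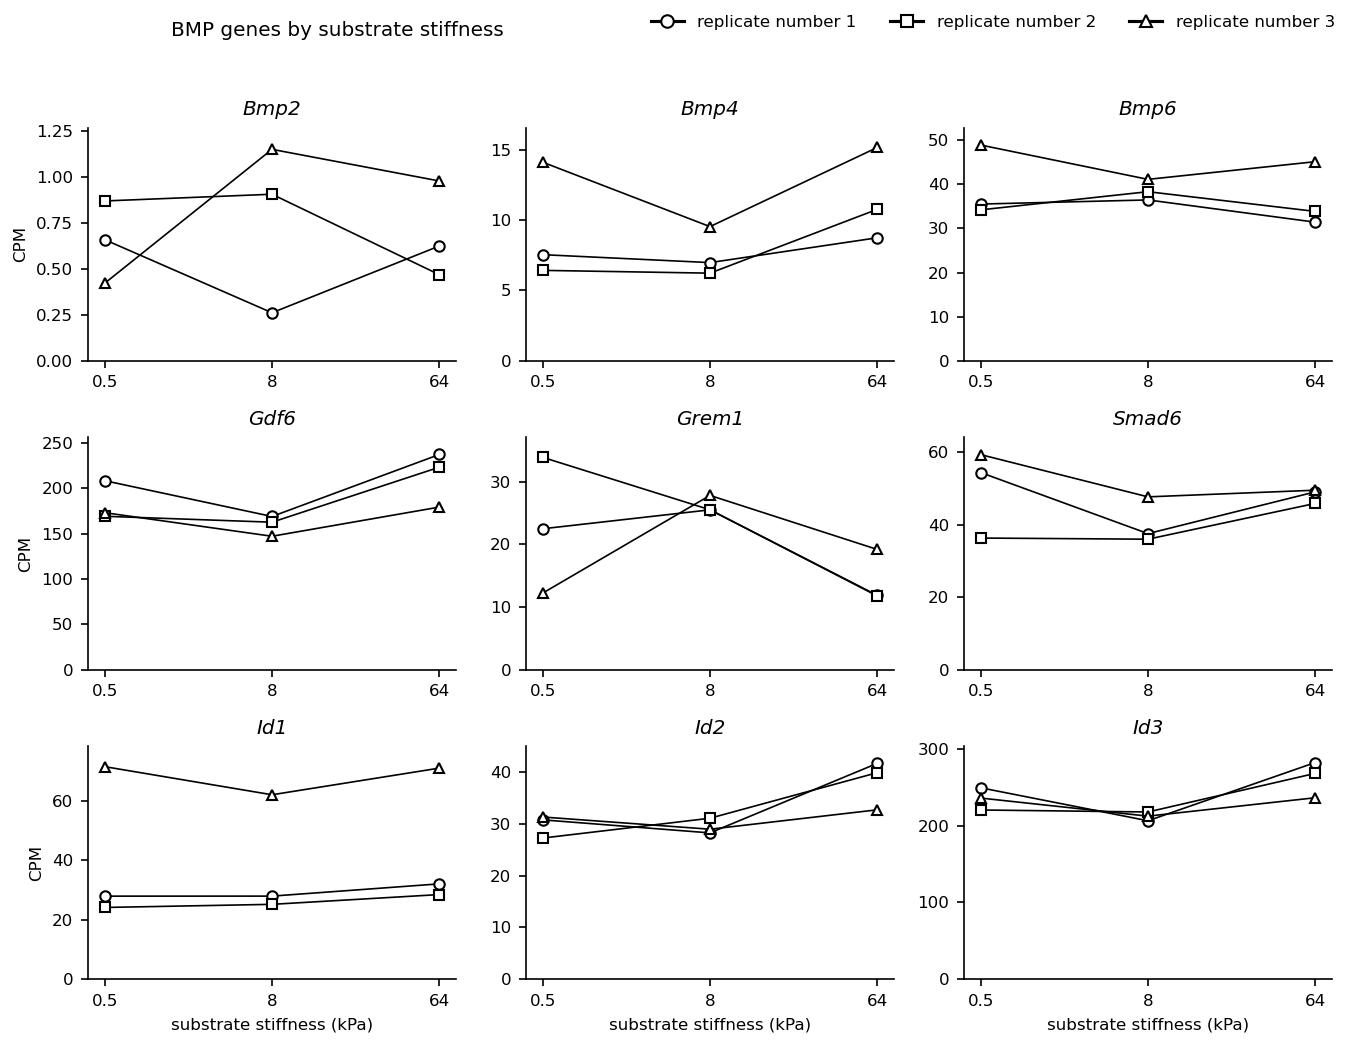
CPM of each gene in the 2D cultures by substrate stiffness in kPa, lines joining libraries of the same replicate number. Between 8 and 64 kPa all 3 lines run the same way for Bmp4, Gdf6, Grem1, Id2 and Id3, and also for Smad6 and Id1, which were not called; for Id1 replicate 3 lies above the others at each stiffness.

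Genes most like each member were ranked by Pearson's correlation of the 10 group means of log2 CPM, among 9109 other genes (9110 for Bmp2 and Grem1) of at least 3 mean log2 CPM, leaving out sex-linked marker genes and symbols of predicted genes and clones. For Id1 the first 3 were Smad7 (r = 0.965), Smad6 (r = 0.964) and Gnas (r = 0.956), and 2 of the 3 stayed among the first 3 by Spearman's correlation. For Smad6 they were Aptx (r = 0.977), Gnas (r = 0.969) and Id1. Bmp6 was most like Svep1 (r = 0.987), with Spearman's rho = 1, Fads2 and Specc1l, and Gdf6 most like Elovl6 (r = 0.986), Sptan1 and Scel. Bmp4 was most like Sc5d (r = 0.987), Copz2 and Chfr, and Id3 most like Cd81 (r = 0.964), Sema3f and Smim1. Grem1 was most like Meis1 (r = 0.961), Lrig1 and Inf2, Id2 most like Dnmt3a (r = 0.935), Tnnt2 and Tmem192, and Bmp2 most like Ric8b (r = 0.981), Pi4ka and Tgfb1. For Bmp2, Bmp4, Gdf6, Id2 and Id3, 0 of the 3 stayed by Spearman's correlation, so these names depend on the measure.

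**Figure D5:**
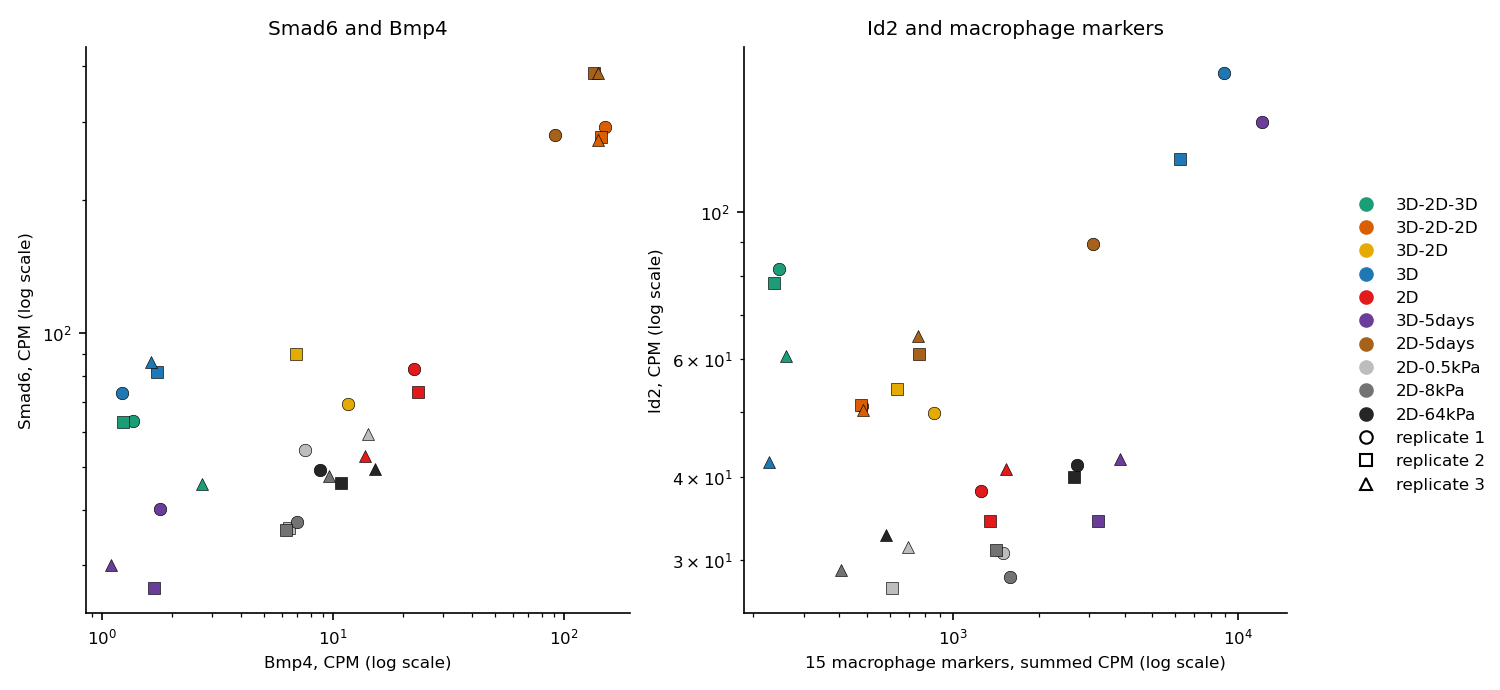
CPM on log axes in each RNA library, coloured by group, with symbols for the replicate number: left, Smad6 against Bmp4; right, Id2 against the summed CPM of 15 macrophage markers. The 2D-5days and 3D-2D-2D libraries lie apart at high Bmp4 and high Smad6, and the 3 libraries with the highest Id2 also have the highest macrophage sums.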

How the data were processed

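RNA was sequenced from 29 libraries in 10 groups of mouse cardiac fibroblasts. The values deposited by the authors are counts of reads per gene in 1 table, whole numbers without normalization. The submitters' processing notes name TopHat, HTSeq, Bowtie and MACS2 without versions, and mm10; the annotation and strandedness of counting are not stated. The 5 summary lines of the counter were left out of library totals; reads not uniquely aligned were 14.0% to 28.4% of a library, reads outside genes 4.84% to 10.0% and ambiguous reads 0.881% to 1.06%. The 2 ATAC-seq libraries were not analysed here.

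All 29 libraries were fitted together with edgeR 4.0.16 (limma 3.58.1, R 4.3.3) with 1 mean per group, filterByExpr, TMM scaling (factors 0.868 to 1.10) and robust quasi-likelihood tests, adjusted over 14036 genes; scripts were tested on simulated data. The F statistic gave the standard errors, and likeness used log2 CPM with a prior count of 2. The 9 genes are all described, and up to 4 called genes of a pathway list, those of smallest adjusted p, could be named. The members and lists were chosen with earlier results of these data known. Replicate numbers were taken as pairs where deviations from group means correlated over 0.1 in every pair, with 3 pairs. This held for 3D with 2D, 3D-2D-3D with 3D, 5 days and the substrates. The labels do not say what a number shares. The same number did not have to correlate best. Number 1 gave 0.141 in 3D with 2D and 0.196 in 3D-2D-3D with 3D, where another number gave 0.165 and 0.259. Another number was also higher for numbers 2 and 3 at 5 days, 1 and 2 of 0.5 with 8 kPa and 2 of 0.5 with 64 kPa. Elsewhere in these comparisons, 8 with 64 kPa included, the same number correlated best. Floors cover counting error only, while the standard errors also hold the fitted spread between libraries. Alternatives were RLE or total scaling, other filters, fits of the compared groups with and without the block, DESeq2 1.42.0, leaving out libraries, and summing the most alike libraries, the last chosen after seeing the data.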

Additional observations from a re-analysis of the deposited data

Results flagged for a closer look

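The change in 3D against 2D differed between 5 days and no stated time for 6 of the 9 genes. This was beside 25.5% of all genes tested (12.3% higher and 13.2% lower), by the difference-of-differences contrast of edgeR with adjustment over all genes. Time and library set cannot be told apart in this contrast. The log2 difference of differences was -3.65 ± 0.28, adjusted p = 2.35e-08 for Smad6, -2.65 ± 0.51, adjusted p = 0.000639 for Bmp4 and -2.89 ± 0.59, adjusted p = 0.00117 for Id1. It was -1.96 ± 0.30, adjusted p = 8.16e-05 for Id3, -0.97 ± 0.21, adjusted p = 0.00217 for Gdf6 and -1.53 ± 0.55, adjusted p = 0.044 for Id2. The Id2 call was lost in 9 of the 12 fits that left out 1 library, at -1.63 to -1.10 in those, and without a low-count filter (-1.57), in the compared groups alone (-1.53), with the replicate block (-1.55) and with the most alike libraries summed (-1.04). The other 5 calls were kept in every alternative run.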

How the results depend on the processing

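Fits with a block held only the compared groups, so they are to be read beside the fits of those groups without one. With the replicate number as a block in such fits, the count of members called was 2 for 3D against 2D, 6 for 3D-2D against 3D, 7 (6264 genes) for 3D-2D against 2D, 9 for 3D-2D-3D against 3D-2D, 1 (1587 genes) for 3D-2D-3D against 3D and 5 (608 genes) for 8 against 64 kPa, and 2 genes were called for 0.5 against 8 kPa. The numbers pair no more than 2 libraries in the 3D-2D comparisons and share only a number in 3D-2D-3D against 3D-2D-2D. Such fits turned Grem1 (3.86) and Smad6 (0.011) in 3D-2D against 3D and Bmp2 (1.46) and Smad6 (-0.018) against 2D, and at 5 days they changed no member's call. Fitting the compared groups alone without a block gave 4 members for 3D against 2D, 3 for 3D-2D against 3D, 0 genes between substrates, 523 genes and 1 member for 3D-2D against 2D, 7 members for 3D-2D-3D against 3D-2D, 1485 genes and 1 member for 3D-2D-3D against 3D, 2991 genes at 5 days and 2156 for the difference of differences; Id2 in 3D-2D-3D against 3D-2D-2D and Id1 in 3D-2D-2D against 3D-2D were called there and with the block. Summing the most alike libraries gave 201 genes for 3D-2D against 2D, 445 genes and 1 member for 3D-2D-3D against 3D, 2502 genes at 5 days and 1365 for the difference of differences. RLE factors and no filter each gave 1 member for 3D-2D-3D against 3D. Over all the alternatives run, the genes called ranged from 5307 to 7671 for 3D against 2D and from 5761 to 9957 for 3D-2D against 3D. For 3D-2D-3D against 3D-2D they ranged from 5081 to 9429. Counts of members given without a count of genes are to be read beside these ranges. The cause of these shifts was not tested, beyond fewer libraries informing the spread.

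Values that changed sign were mostly near 0 and not called. In 3D-2D-3D against 3D, Bmp6 was at -0.026 with RLE factors, -0.056 with totals, -0.016 with no filter, -0.029 with the 1 CPM filter, -0.026 in the groups alone, -0.17 with summed libraries and -0.024 by DESeq2. At 5 days Id2 was at 0.0096 with RLE factors, 0.075 with totals, 0.0062 in the groups alone, 0.19 with summed libraries and 0.013 by DESeq2. Id1 was at 0.089 for 3D-2D against 3D with summed libraries, and in libraries 1 and 2 alone Smad6 was at -0.040 and Id3 at -0.26 for 3D against 2D.

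Leaving out 1 library at a time gave 171 to 2947 genes and 2 to 5 members for 3D-2D against 2D, and 1991 to 4100 genes and 1 to 3 members for 3D-2D-3D against 3D. Ranges that crossed 0 were, for 3D against 2D, -0.31 to 0.22 for Id3 and -3.27 to 8.12 for Grem1. For 3D-2D against 3D they were -0.21 to 0.15 for Smad6, -0.33 to 0.15 for Id1 and -1.18 to 3.88 for Grem1, and against 2D -0.82 to 1.49 for Bmp2 and -0.013 to 0.34 for Smad6. For 3D-2D-3D against 3D they were -0.21 to 0.35 for Bmp6, -0.26 to 0.40 for Bmp4 and -0.19 to 0.0061 for Id3. They were -0.12 to 0.025 for Id2 in 3D-2D-2D against 3D-2D, -0.90 to 0.33 for Id2 at 5 days and -6.47 to 4.93 for Grem1 in the difference of differences. Between 0.5 and 8 kPa they were -0.017 to 0.079 for Id2, -0.60 to 0.18 for Bmp2, -0.11 to 0.51 for Bmp4, -0.14 to 0.13 for Bmp6, -0.59 to 0.11 for Grem1 and -0.55 to 0.61 for Id1. Between 0.5 and 64 kPa they were -0.28 to 0.32 for Bmp2, -0.076 to 0.24 for Smad6, -0.74 to 0.44 for Id1 and -0.065 to 0.28 for Bmp6. Between 8 and 64 kPa they were -0.030 to 0.25 for Bmp6, -0.18 to 0.60 for Bmp2 and -0.71 to 0.34 for Id1. Reads numbered 15 or fewer in 16 of 29 libraries for Bmp2, in 10 for Grem1 and in 1 for Bmp4, which limits the precision there.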
